A study of Mus musculus with 16 samples.

Results

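The receptor genes for colony-stimulating factors and other cytokines were followed in mouse macrophages given dying cells, whose uptake is called efferocytosis. The 10 genes were the growth factor receptor genes Csf1r, Csf2ra, Csf2rb and Csf3r, the interleukin receptor genes Il4ra, Il6ra and Il10ra, the interferon receptor genes Ifngr1 and Ifnar1, and the transforming growth factor beta receptor gene Tgfbr1. They were chosen by name, 10 of the 55416 genes in the table of counts, and all 10 passed the filter on low counts that left 14168 genes for testing. RNA came from macrophages of the Hoxb8 line, derived from mouse bone marrow, kept alone or incubated with apoptotic cells for 45, 90 or 180 min, with 4 libraries in each of these 4 groups and 16 in all. The apoptotic cells were human Jurkat cells, a T cell leukaemia line. Hoxb8 lines are grown from myeloid progenitors that this transcription factor keeps dividing until it is withdrawn, so all 4 groups, the macrophages alone included, share this origin. No label states that libraries of a group were separate cultures, so the p-values measure the spread between these libraries, which may be technical. When the macrophages kept alone were harvested is not given, so exposure to apoptotic cells and time in culture cannot be told apart.

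Colony-stimulating factors keep macrophages and granulocytes alive and steer their growth, and a macrophage senses them through receptors at its surface. Csf1r is a receptor tyrosine kinase. The receptors for granulocyte-macrophage colony-stimulating factor (GM-CSF), interleukins and interferons have no kinase of their own: ligand binding joins a pair of chains, Janus kinases (JAK) bound to their tails phosphorylate STAT proteins, and these enter the nucleus. Tgfbr1 is a serine/threonine kinase that is activated by its partner Tgfbr2 and phosphorylates SMAD proteins. In macrophages, interferon gamma is known for driving antimicrobial activation, while interleukin 4, interleukin 10 and transforming growth factor beta are known for repair and the damping of inflammation.

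The regions around the start of 3 of the genes are shown because Il4ra and Csf2ra had the largest rises over the 3 times and Ifngr1 the largest fall among the 10, and because the series concerns the release of RNA polymerase paused just after the start of genes. Each holds 250 bases before and 50 bases after the gene start on the gene's strand, from RefSeq on build GRCm38.p6, at chr7:125552021-125552320 (+ strand) for Il4ra, chr19:61228369-61228668 (- strand) for Csf2ra and chr10:19591699-19591998 (+ strand) for Ifngr1. The table of start regions held an entry for 7 of the 10 receptor genes. Capitals mark matches to a searched motif on either strand.
Il4ra: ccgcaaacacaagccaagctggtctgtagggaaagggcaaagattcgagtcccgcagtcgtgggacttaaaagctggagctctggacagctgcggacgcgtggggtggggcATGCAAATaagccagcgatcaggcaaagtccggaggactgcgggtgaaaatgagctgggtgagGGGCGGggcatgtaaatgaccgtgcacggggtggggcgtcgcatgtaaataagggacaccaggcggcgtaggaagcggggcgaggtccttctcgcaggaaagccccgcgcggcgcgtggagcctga
Csf2ra: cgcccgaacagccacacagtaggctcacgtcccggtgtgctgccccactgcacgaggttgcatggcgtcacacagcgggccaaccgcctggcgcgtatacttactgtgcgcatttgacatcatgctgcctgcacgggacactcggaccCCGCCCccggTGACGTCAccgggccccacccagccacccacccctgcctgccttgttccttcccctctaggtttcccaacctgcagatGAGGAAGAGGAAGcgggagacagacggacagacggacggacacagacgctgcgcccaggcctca
Ifngr1: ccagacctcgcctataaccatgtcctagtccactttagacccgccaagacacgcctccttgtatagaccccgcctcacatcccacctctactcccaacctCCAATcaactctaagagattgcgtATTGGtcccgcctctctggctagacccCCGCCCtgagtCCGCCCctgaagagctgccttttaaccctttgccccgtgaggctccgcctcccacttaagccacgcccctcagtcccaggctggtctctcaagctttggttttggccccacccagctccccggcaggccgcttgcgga
The motifs searched were 12: the GC box GGGCGG, the CCAAT box CCAAT, the TATA box TATAAA, the cyclic AMP element TGACGTCA, the AP-1 site TGANTCA, the STAT site TTCNNNGAA, the PU.1 site GAGGAAG, the C/EBP site TTGCNNAA, the EGR site GCGNGGGCG, the interferon-stimulated response element, the octamer ATGCAAAT and the SMAD site GTCTAGAC. The Il4ra region held the octamer, starting 139 bases before the gene start, and a GC box starting 76 bases before it. The Csf2ra region held a GC box starting 102 bases and a cyclic AMP element starting 92 bases before the gene start. It also held a pair of PU.1 sites that overlap by 1 base, starting 14 and 8 bases before the start. The Ifngr1 region held CCAAT boxes starting 150 and 126 bases and GC boxes starting 99 and 88 bases before the start. Of 32851 mouse start regions of the same length, 1.74% held the octamer, 1.79% the cyclic AMP element, 13.6% the PU.1 site, 35.7% the GC box and 37.4% the CCAAT box. A match describes these letters and is not a measured binding site.

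Library totals were 18.7 to 27.7 M counts in macrophages alone, 24.4 to 41.7 M at 45 min, 13.6 to 17.4 M at 90 min and 10.7 to 23.4 M at 180 min. Levels are given as counts per M counts (CPM), with M for mega, scaled to each library's effective size. The marker sums of this paragraph use library totals instead. The 9 macrophage markers looked at, Csf1r among them, were all tested. Their sum was 10412 to 10662 CPM in macrophages alone and 11272 to 12256 CPM at 45 min, groups that did not overlap. It was 10196 to 10648 CPM at 90 min and 9589 to 10916 CPM at 180 min. Lyz2, the largest part, had 5054 to 5190 CPM in macrophages alone and 5575 to 6355 CPM at 45 min. The Jurkat cells were human and the counts are of mouse genes, so T cell markers cannot show whether Jurkat RNA was present. Of 10 T cell markers, those of the Jurkat lineage, 5 had no count in any library, Cd3e among them, and 1, Cd28, passed the filter. Their sum was 9.82 to 13.6 CPM at 180 min, 9.05 to 10.8 CPM at 90 min and 9.31 to 10.5 CPM at 45 min, against 11.6 to 14.4 CPM in macrophages alone. None of 8 markers of immature myeloid cells and none of 6 of dendritic cells passed the filter, and 3 of 10 neutrophil markers did, with sums of 12.6 to 17.1 CPM over all libraries. Fewer cells of a type and less RNA per cell cannot be told apart in such bulk RNA.

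In edgeR's quasi-likelihood test for a change at any time, all 10 receptor transcripts passed, as did 44.6% of all genes tested and 77.9% of the 2561 genes at similar average levels. A gene was called at a Benjamini-Hochberg adjusted p under 0.05 over all genes. At 45 min, 2 of the 10 were higher than in macrophages alone and 0 were lower (of all genes, 10.8% were called, 4.69% higher and 6.11% lower). At 90 min, 2 were higher and 3 lower (of all genes, 21.1% were called, 11.1% higher and 9.97% lower). At 180 min, 5 were higher, namely Il4ra, Csf2ra, Tgfbr1, Csf2rb and Ifnar1, and 4 were lower, namely Ifngr1, Il6ra, Csf3r and Csf1r, while Il10ra was not called. The share called at 180 min was 31.1% of all genes, 15.1% higher and 16% lower, and 59.5% of genes at similar levels. For 45 and 90 min no share at similar levels is given, so those counts cannot be compared directly with the shares of all genes. In each of the 9 called genes the libraries at 180 min did not overlap with those of macrophages alone, which held for 28.6% of all genes, called or not. The 9 were picked by a test on the same libraries, so this describes the calls and adds no separate support. The changes were small: their median size at 180 min was 0.26 on the log2 scale among the 10, against 0.21 over all genes. These medians were not matched on level. These comparisons share the same control libraries, so their calls are not independent of each other.

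**Figure D1:**
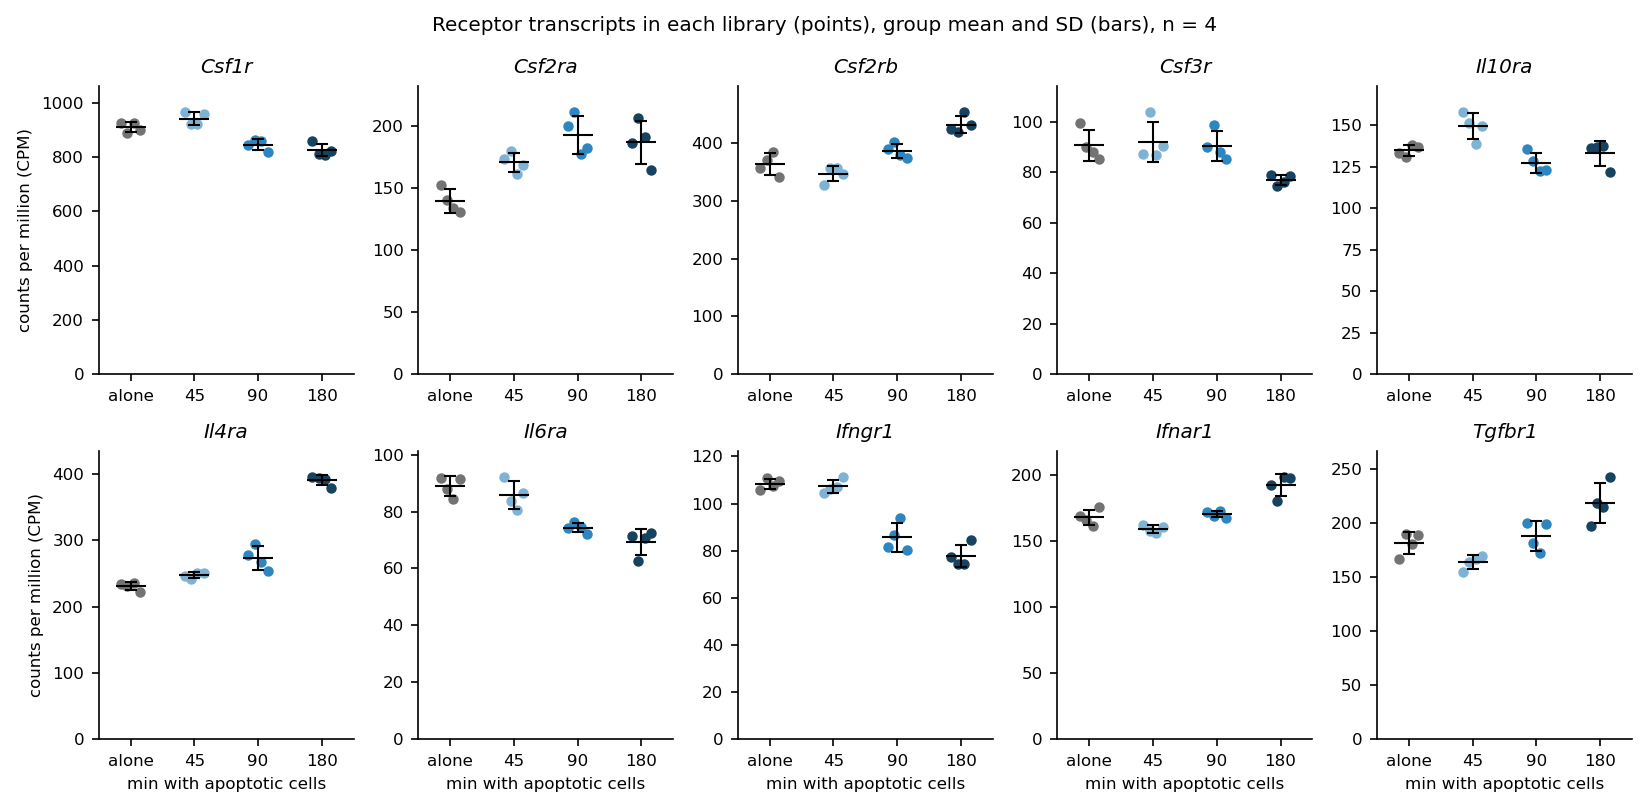
CPM (vertical axes, from 0) of the 10 receptor transcripts in each library of macrophages alone and after 45, 90 and 180 min with apoptotic cells (horizontal axes). Points are libraries, and bars are the group mean and SD (n = 4). Il4ra is between 379 and 396 CPM at 180 min, above every other library, and Ifngr1 is at or below 93.9 CPM in every library at 90 and 180 min.

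Among the colony-stimulating factor receptors, the GM-CSF receptor chains rose and those for CSF-1 and G-CSF fell. Csf2ra, the chain that binds GM-CSF, was the only one of the 10 called higher at all 3 times. Csf2ra had 152, 140.1, 134 and 130.4 CPM in macrophages alone, 173, 179, 161 and 169 CPM at 45 min, 199, 211, 177 and 182 CPM at 90 min and 186, 206, 191 and 164 CPM at 180 min. Every library with apoptotic cells was above every library of macrophages alone. The rise was 0.29 (SE 0.055, adjusted p = 0.00011) at 45 min on the log2 scale, 0.47 (SE 0.056, adjusted p = 1.52e-09) at 90 min and 0.42 (SE 0.056, adjusted p = 9.83e-09) at 180 min, by edgeR with Benjamini-Hochberg adjustment, as for all adjusted p-values of single genes here. At 45 min it was 0.19, still called, after correction for length and GC content (a trend on both taken out of each library). Csf2ra was also higher at 90 min than at 45 min, by 0.17 (SE 0.055, adjusted p = 0.0138), a call lost on leaving out library 2 (0.11, adjusted p = 0.164) or 1 (0.14) of 90 min or library 3 or 4 of 45 min (0.13 and 0.15). From 90 to 180 min the estimate was -0.047 (SE 0.056, adjusted p = 0.695). At 180 min against 45 min it was 0.13 (SE 0.055, adjusted p = 0.068), called after thinning to equal totals (0.16, adjusted p = 0.0158) or on leaving out library 4 of 180 min (0.18, adjusted p = 0.0113).

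Csf2rb encodes the beta chain that GM-CSF, interleukin 3 and interleukin 5 receptors share. Csf2rb had 357, 371, 385 and 340.4 CPM in macrophages alone, 328, 356, 357 and 347 CPM at 45 min, 389, 401, 378 and 375 CPM at 90 min and 424, 419, 453 and 430.1 CPM at 180 min. All 4 libraries at 180 min were above all others, and those of macrophages alone overlapped with those at 45 and at 90 min. At 45 min the estimate was -0.067 (SE 0.043, adjusted p = 0.375), which was called lower after correction for length and GC content (-0.13, adjusted p = 0.0244). The rise at 180 min was 0.25 (SE 0.043, adjusted p = 4.18e-06), and it was higher than at 90 min by 0.16 (SE 0.043) and than at 45 min by 0.32 (SE 0.043). Mice have a near copy, Csf2rb2, which serves interleukin 3 only. The copy averaged 432 ± 22.9 CPM at 180 min and 443 ± 20.7 CPM in macrophages alone (SD, n = 4 each), and was not called at any time (-0.075, -0.10 and -0.035 on the log2 scale at 45, 90 and 180 min). Of the 50-base words of the Csf2rb transcripts, 12.3% also occur in those of Csf2rb2, and 18.4% the other way round. Counts could therefore move between the copies, to an extent not measured here, so both values are uncertain.

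Csf1r, the receptor for CSF-1 and interleukin 34 on which macrophages depend, was the most abundant of the 10. Csf1r had 923, 888, 926 and 900.2 CPM in macrophages alone, 964, 921, 919 and 958 CPM at 45 min, 843, 861, 860.1 and 817 CPM at 90 min and 858, 809, 809 and 823 CPM at 180 min. The libraries at 90 and 180 min were all below those of macrophages alone and those at 45 min. The log2 change was -0.14 (SE 0.037, adjusted p = 0.00222) at 180 min, and the difference of 180 min from 45 min was -0.19 (SE 0.037, adjusted p = 3.69e-05). At 90 min the fall against macrophages alone was -0.11 (SE 0.037, adjusted p = 0.0351), but the call was lost on leaving out library 3 of macrophages alone (-0.097, adjusted p = 0.0977) or library 4 of 90 min (-0.092, adjusted p = 0.107), with no filter on low counts (adjusted p = 0.0565) or with libraries thinned to equal totals (adjusted p = 0.0945). Beside this fall, 5 of the 9 macrophage markers, Csf1r included, were lower at 180 min and 1 was higher (of all genes, 16% and 15.1%). The median log2 change was -0.11 over the 9, against 0.0082 over all genes. At 180 min against 45 min 7 of the 9 were lower and 0 higher (of all genes, 18% and 18.3%). Their part in the fall of Csf1r was not tested. Of its exon bases, 15.1% are shared with Hmgxb3 on the opposite strand. Before scaling to effective size, Hmgxb3 had 57.7 to 65.4 CPM in macrophages alone and 55.2 to 66.9 CPM at 180 min. Libraries came from a strand-marking kit, but the strand setting of the counting is not given in the sources used here.

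Csf3r is the receptor for granulocyte colony-stimulating factor, known for neutrophil formation. Csf3r had 99.3, 89.9, 87.9 and 85.3 CPM in macrophages alone, 87.2, 104, 87.0 and 90.4 CPM at 45 min, 89.9, 98.8, 88.1 and 85.0 CPM at 90 min and 78.7, 74.5, 76.0 and 78.4 CPM at 180 min. Only at 180 min were all libraries below those of macrophages alone, with the other times overlapping them. The log2 change at 180 min was -0.24 (SE 0.059, adjusted p = 0.0012) against macrophages alone, -0.26 (SE 0.059) against 45 min and -0.23 (SE 0.061) against 90 min, the last a call lost on leaving out library 2 of 90 min (-0.18, adjusted p = 0.056).

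Among the interleukin receptors, Il4ra had the largest change of the 10, Il6ra fell and Il10ra was briefly higher. Il4ra encodes the chain that interleukin 4 and interleukin 13 receptors share. Il4ra had 234, 232, 235 and 221 CPM in macrophages alone, 246, 242, 251 and 251 CPM at 45 min, 278, 295, 268 and 253 CPM at 90 min and 396, 394, 392 and 379 CPM at 180 min. Groups did not overlap between any time with apoptotic cells and macrophages alone, and the 180 min libraries stood above all others. At 180 min the level was 1.69 times that of macrophages alone, a log2 change of 0.76 (SE 0.044, adjusted p = 6.02e-22). The rise was 0.24 (SE 0.044, adjusted p = 2.14e-05) at 90 min, while the 45 min value, 0.10 (SE 0.044, adjusted p = 0.146), was not called. Between 90 and 180 min it rose by a further 0.51 (SE 0.044, adjusted p = 3.13e-14). The smaller step of 90 min over 45 min, 0.14 (SE 0.044, adjusted p = 0.0102), lost its call on leaving out library 2 (0.088, adjusted p = 0.156) or 1 of 90 min or library 1 or 2 of 45 min, or with no filter on low counts. The annotation places an antisense gene over 9.51% of the Il4ra exon bases, with 8 counts over all 16 libraries.

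Il6ra binds interleukin 6 and signals through the shared chain Il6st (gp130). It had 92.0, 88.0, 84.3 and 91.5 CPM in macrophages alone, 92.1, 83.8, 80.7 and 86.7 CPM at 45 min, 74.3, 76.5, 74.4 and 72.3 CPM at 90 min and 71.6, 62.7, 70.8 and 72.4 CPM at 180 min. The libraries at 90 and 180 min were all below those of the other 2 groups. The log2 change was -0.26 (SE 0.057, adjusted p = 0.000481) at 90 min and -0.35 (SE 0.057, adjusted p = 9.49e-07) at 180 min, and 180 min did not differ from 90 min past the threshold (-0.096 (SE 0.059)). An antisense gene covers 2.8% of its exon bases, with 19 counts over all 16 libraries.

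Il10ra binds interleukin 10, which damps macrophage activation. Il10ra had 133, 131, 138 and 137 CPM in macrophages alone, 158, 151, 139 and 149 CPM at 45 min, 136, 128, 122 and 123 CPM at 90 min and 136, 137, 137 and 122 CPM at 180 min. The 45 min libraries were above all those of macrophages alone, though by less than 1 CPM for the lowest of them. The rise at 45 min was 0.15 (SE 0.049, adjusted p = 0.04) and lost its call on leaving out library 1 or 2 of macrophages alone (adjusted p = 0.0701 and 0.0769), or library 1 or 4 of 45 min (0.101 and 0.0542), after thinning to equal totals (0.0823) or after correction for length and GC content (a log2 change of 0.084, adjusted p = 0.28). The log2 change of 90 min against 45 min was larger, -0.23 (SE 0.050, adjusted p = 0.000283), and that of 180 min against 45 min was -0.17 (SE 0.050, adjusted p = 0.0055). Against macrophages alone it was -0.083 (SE 0.051) at 90 min and -0.021 (SE 0.051) at 180 min, neither called, but the 90 min value was called lower after correction for length and GC content (-0.14, adjusted p = 0.0277).

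The interferon receptor chains went in opposite directions. Ifngr1, which binds interferon gamma, had 106, 111, 107 and 109 CPM in macrophages alone, 105, 106, 107 and 111 CPM at 45 min, 81.4, 86.8, 93.9 and 80.3 CPM at 90 min and 77.5, 74.2, 74.4 and 84.5 CPM at 180 min. Libraries at 45 min overlapped with macrophages alone, and all libraries at 90 and 180 min lay below both. The log2 change was -0.013 (SE 0.053, adjusted p = 0.931) at 45 min, -0.34 (SE 0.055, adjusted p = 2.32e-06) at 90 min and -0.48 (SE 0.055, adjusted p = 1.6e-10) at 180 min, the last the largest fall among the 10. Between 90 and 180 min the change, -0.14 (SE 0.057), was not called.

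Ifnar1, a chain of the receptor for the type I interferons, had 169, 166, 162 and 176 CPM in macrophages alone, 163, 158, 157 and 161 CPM at 45 min, 172, 169.6, 173 and 168 CPM at 90 min and 193, 181, 199 and 198 CPM at 180 min. The libraries at 180 min were above all others. The rise at 180 min was 0.20 (SE 0.046, adjusted p = 0.000419) against macrophages alone, 0.18 (SE 0.046) against 90 min and 0.27 (SE 0.045) against 45 min, while 45 and 90 min were not called against macrophages alone.

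Tgfbr1, the signalling kinase of the receptor for transforming growth factor beta, had 167, 189.7, 181 and 189 CPM in macrophages alone, 155, 164, 167 and 169 CPM at 45 min, 199.8, 181, 172 and 199 CPM at 90 min and 197, 219, 215 and 243 CPM at 180 min. All libraries at 180 min were above those of macrophages alone, the lowest at 197 CPM against a highest of 189.7 CPM. The rise was 0.27 (SE 0.053, adjusted p = 3.89e-05) at 180 min and 0.22 (SE 0.053) against 90 min. Against 45 min it was 0.42 (SE 0.053), or 0.24 after correction for length and GC content. The estimate at 45 min was -0.15 (SE 0.052, adjusted p = 0.0576), called with only these 2 groups in the fit (adjusted p = 0.0102) or on leaving out library 1 of macrophages alone (adjusted p = 0.024), and 0.0057 after that correction. The step of 90 min over 45 min, 0.20 (SE 0.053, adjusted p = 0.00291), was also not called after that correction (0.0085, adjusted p = 0.912).

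**Figure D2:**
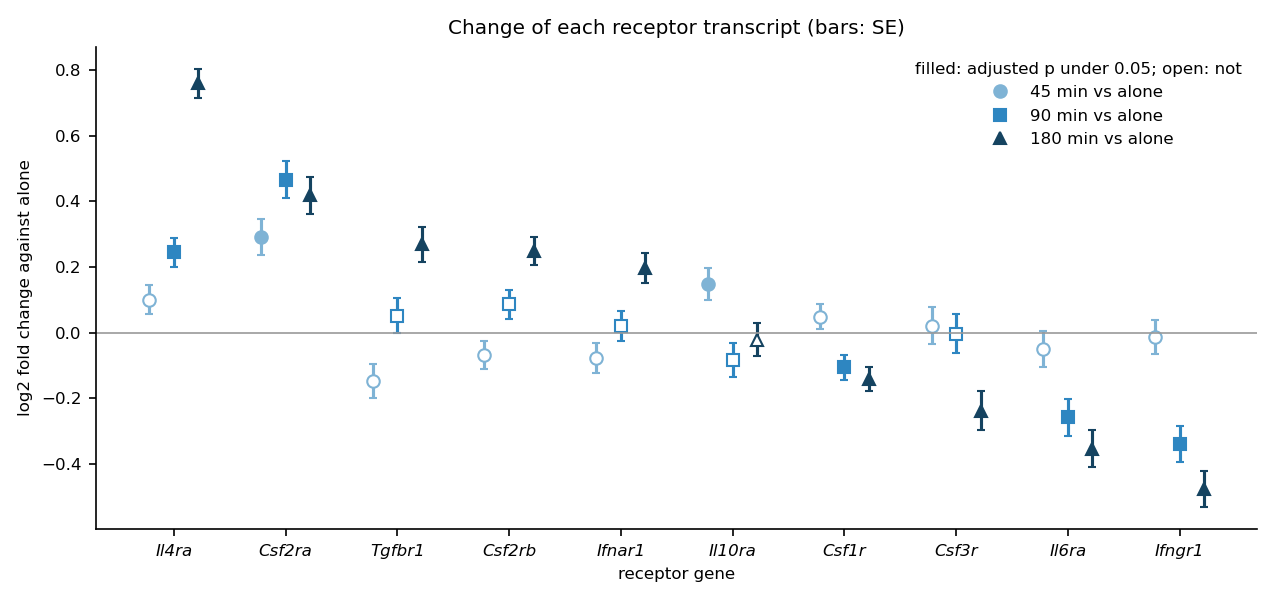
Log2 fold change of the 10 receptor transcripts (vertical axis) at 45, 90 and 180 min against macrophages alone, with genes ordered along the horizontal axis by the change at 180 min. Bars are standard errors of edgeR's fit, and filled symbols have an adjusted p under 0.05. The span runs from 0.76 for Il4ra to -0.48 for Ifngr1 at 180 min.

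Between times, 4 of the 10 were called higher and 4 lower at 90 min against 45 min (of all genes, 28.1% were called, 14.8% higher and 13.3% lower), 4 higher and 1 lower at 180 min against 90 min (11.4%, with 4.45% higher and 6.97% lower), and 4 higher and 5 lower at 180 min against 45 min (36.4%, with 18.3% higher and 18% lower). These shares are over tested genes of all levels, while the 10 stood between percentiles 81.1 (Il6ra) and 99.2 (Csf1r) of average level. The counts and shares therefore cannot be compared directly. The step from 90 to 180 min comprised rises of Il4ra, Tgfbr1, Ifnar1 and Csf2rb and the fall of Csf3r. Those of Csf2ra, Csf1r, Il6ra, Ifngr1 and Il10ra were not called in that step. Without library 2 of 90 min the step from 45 to 90 min held 5 calls in all.

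The order of the levels differed between macrophages alone and 180 min, read as mean CPM per kilobase of exon so that genes can be set side by side. At 180 min Csf1r stood at 143 ± 3.98 CPM per kilobase (SD, n = 4), followed by Il4ra at 65.0 ± 1.24, Csf2ra at 65.0 ± 6.05 and Csf2rb at 59.3 ± 2.04. Then came Il10ra at 38.0 ± 2.11, Tgfbr1 at 33.4 ± 2.87, Ifnar1 at 32.4 ± 1.39, Ifngr1 at 27.3 ± 1.69, Csf3r at 21.3 ± 0.558 and Il6ra at 8.02 ± 0.521 CPM per kilobase. Of these neighbours, Il4ra and Csf2ra, Csf2ra and Csf2rb, and Tgfbr1 and Ifnar1 differed by less than their spread. In macrophages alone Csf1r was at 157 ± 3.14, Csf2rb at 49.9 ± 2.61, Csf2ra at 48.5 ± 3.35, Il10ra at 38.5 ± 0.915, Il4ra at 38.4 ± 1.03 and Ifngr1 at 38.0 ± 0.787 CPM per kilobase. Below them were Ifnar1 at 28.3 ± 0.975, Tgfbr1 at 27.8 ± 1.60, Csf3r at 25.1 ± 1.69 and Il6ra at 10.3 ± 0.413. Csf2rb and Csf2ra could not be ordered there, nor could Il10ra, Il4ra and Ifngr1, nor Ifnar1 and Tgfbr1. At 180 min Il4ra was thus set apart from Il10ra and Ifngr1, whose levels it had shared in macrophages alone.

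Since most of these receptors work as pairs, the ratio of the counts of a receptor gene to those of a partner chain was compared within each library. This was done for 9 pairs at 3 times, with none for Csf1r and Csf3r. The pair of Csf2rb and Csf2rb2 sets a chain against its near copy, and counts could move between these copies. Ifngr1 over Ifngr2, the chain that completes the interferon gamma receptor, was 0.355, 0.374, 0.360 and 0.417 at 180 min, against 0.592, 0.623, 0.599 and 0.592 in macrophages alone. The groups were fully separate, and the ratio at 180 min was 0.625 times that of macrophages alone. Ifngr2 itself rose by 0.20 (SE 0.045, adjusted p = 0.000354) while Ifngr1 fell. Il4ra over Il2rg, the common gamma chain of the interleukin 4 receptor, was 4.38, 5.20, 4.97 and 5.01 at 180 min, against 2.33, 2.61, 2.36 and 2.32 in macrophages alone, a ratio 2.03 times as high. Il2rg fell by 0.26 (SE 0.064, adjusted p = 0.000952) on the log2 scale at 180 min. Il4ra over Il13ra1, which forms the other interleukin 4 receptor and the interleukin 13 receptor, averaged 39.0 ± 9.33 at 180 min and 18.4 ± 2.03 in macrophages alone (SD, n = 4 each).

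Other pairs shifted less. At 180 min Tgfbr1 over Tgfbr2 averaged 1.58 ± 0.175, against 1.23 ± 0.0754 in macrophages alone, Ifnar1 over Ifnar2 2.21 ± 0.174, against 1.83 ± 0.0606, and Csf2rb over Csf2rb2 1.001 ± 0.0404, against 0.821 ± 0.0241 (SD, n = 4 each), with groups that did not overlap. Csf2ra over Csf2rb was higher than in macrophages alone at 45 min (1.28 times) and 90 min (1.30 times), while at 180 min the groups overlapped. Il10ra over Il10rb and Il6ra over Il6st overlapped with macrophages alone at all 3 times. With 4 libraries against 4, an exact two-sided permutation test has 70 arrangements and a smallest p of 0.0286, which every fully separated ratio reached. Adjusted over the 27 comparisons this is 0.0643, so 0 of the 27 passed 0.05 after adjustment and 12 had an unadjusted p under 0.05. Some ratios share a gene, such as Il4ra or Csf2rb, so they are not independent. How often ratios of other gene pairs separate was not tested.

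**Figure D3:**
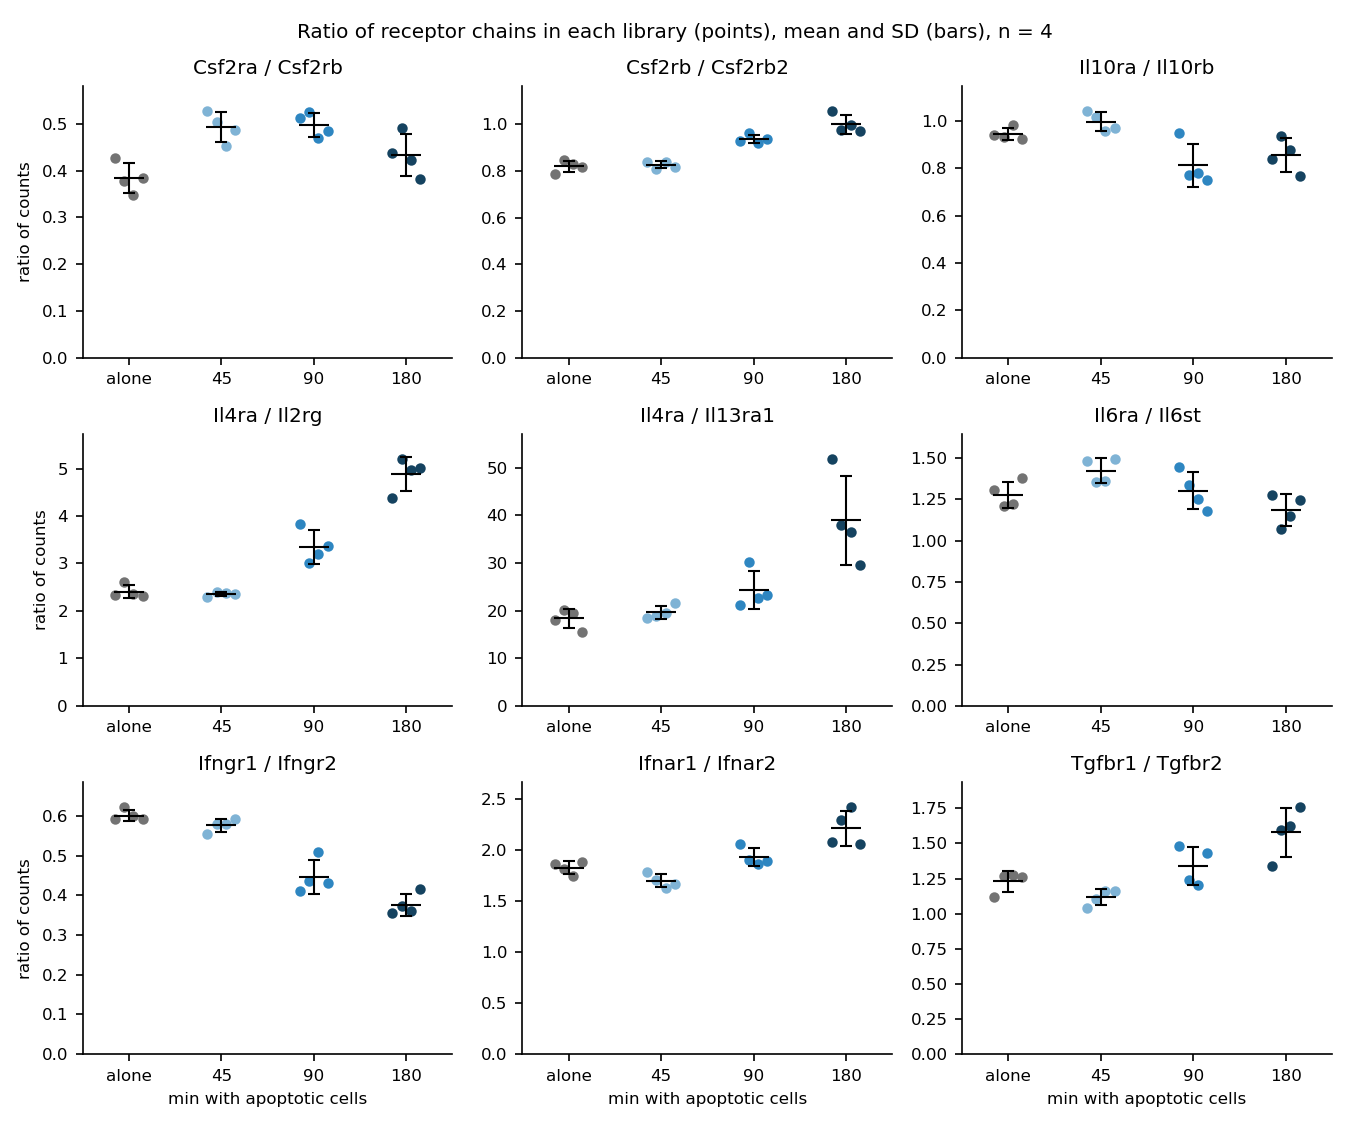
Ratios of counts of the 9 pairs (vertical axes, from 0) in each library. Groups are macrophages alone and after 45, 90 and 180 min with apoptotic cells. Points are libraries, and bars are the mean and SD (n = 4). Il4ra over Il2rg lies between 4.38 and 5.20 at 180 min, against 2.32 to 2.61 in macrophages alone.

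Of 14 partner or related chains listed, 13 were tested, and at 180 min 2 were higher and 2 lower (of all genes, 15.1% and 16%). The higher ones were Ifngr2 and Il10rb, the partner of Il10ra, at 0.13 (SE 0.049), a call lost on leaving out library 1, 2 or 3 of macrophages alone or library 1, 3 or 4 of 180 min, with no filter on low counts or after correction for length and GC content (0.066). The lower ones were Il2rg and Il6st, at -0.25 (SE 0.061). Il6st was below macrophages alone in every library at all 3 times, with 58.0 to 62.2 CPM at 45 min, 51.5 to 61.4 CPM at 90 min and 56.0 to 61.5 CPM at 180 min, against 66.4 to 72.7 CPM in macrophages alone, and its 45 min call was lost on leaving out library 2 of macrophages alone or library 3 or 4 of 45 min, and after correction for length and GC content (-0.12).

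Of 13 ligand genes 7 were tested, and at 180 min 0 were higher and 1 was lower (of all genes, 15.1% and 16%). That one was Csf1, which encodes the ligand of Csf1r, with 30.5, 24.3, 26.8 and 29.7 CPM at 180 min, against 42.7, 39.8, 40.9 and 39.9 CPM in macrophages alone. The log2 change was -0.55 (SE 0.078, adjusted p = 5.03e-08), and at 90 min -0.24 (SE 0.077, adjusted p = 0.0166) (lost on leaving out library 4 of 90 min). Tgfb1, a ligand of the receptor that holds Tgfbr1, averaged 189 ± 9.66 CPM at 180 min and 199.9 ± 9.59 CPM in macrophages alone (SD, n = 4 each) and was not called at any time. Il10 had 5.24, 2.995, 3.01 and 2.47 CPM at 45 min, against 1.37, 1.72, 1.66 and 1.66 CPM in macrophages alone. It was the 1 ligand called at 45 min (1.09, adjusted p = 0.0151), a call lost on leaving out library 1 of 45 min (0.83, adjusted p = 0.144). Il4 and Ifng, whose receptor chains Il4ra and Ifngr1 changed the most, had 0 counts in all 16 libraries, and Il13 had 1 count.

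The 4 Janus kinases serve all of these receptors except Csf1r and Tgfbr1. At 180 min 1 was higher and 3 were lower (of all genes, 15.1% and 16%). Jak2, used by the GM-CSF and interferon gamma receptors, had 154, 166, 163 and 165 CPM at 180 min, against 121, 128, 124 and 131 CPM in macrophages alone, a rise of 0.37 (SE 0.049, adjusted p = 8.93e-09). Jak1, used by the interferon, interleukin 4, interleukin 6 and interleukin 10 receptors, fell (-0.26 (SE 0.043)), as did Tyk2 (-0.28 (SE 0.054)). Jak3, the partner of Il2rg, was at -0.22 (SE 0.073), a call lost on leaving out library 1 of macrophages alone (-0.18, adjusted p = 0.0801), and -0.33 after correction for length and GC content. At 45 min 0 of the 4 were called.

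Of 9 STAT and SMAD genes, 1 rose and 4 fell at 180 min (of all genes, 15.1% and 16%), and 0 were called at 45 min (10.8%). Smad3, which carries the signal of Tgfbr1, had 90.3, 91.0, 89.5 and 89.2 CPM at 180 min, against 47.7, 44.7, 50.7 and 45.0 CPM in macrophages alone. Its rise was 0.94 (SE 0.061, adjusted p = 1.02e-19) at 180 min and 0.30 (SE 0.063, adjusted p = 0.000193) at 90 min, while Smad2 and Smad4 were not called. The falls at 180 min were those of Stat2 (-0.62 (SE 0.038)), which carries interferon signals, Stat5b (-0.43 (SE 0.064)), used by the GM-CSF receptor, and Stat3 (-0.26 (SE 0.045)), used by the interleukin 6 and 10 receptors. Stat6, the factor downstream of Il4ra, was at -0.13 (SE 0.043), a call lost on leaving out library 1 or 3 of macrophages alone or library 4 of 180 min (adjusted p = 0.0591, 0.0525 and 0.0535), and -0.21 after correction for length and GC content.

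Another list held 24 feedback inhibitors and other regulators of signalling by these receptors, phosphatase, PIAS and Cbl genes included, so its counts mix classes. Of these, 11 were higher and 7 lower at 180 min (of all genes, 15.1% and 16%). There were 8 higher and 4 lower at 90 min (11.1% and 9.97% of all genes), and 2 and 2 at 45 min (4.69% and 6.11%). Smad6, an inhibitor of SMAD signalling, had 7.97 to 10.7 CPM at 180 min, against 1.51 to 2.79 CPM in macrophages alone, with a rise of 2.29 (SE 0.22). Smad7, which blocks Tgfbr1 itself, rose by 1.80 (SE 0.10), and Pmepa1, which sequesters SMAD proteins, by 1.62 (SE 0.12), while Smurf1 and Smurf2, further inhibitors of this pathway, were not called. The largest rise of the 24 by log2 change was that of Socs2, an inhibitor of receptors that use STAT5, at 3.25 (SE 0.58, adjusted p = 6.71e-06), with 1.38 to 2.68 CPM at 180 min, against 0.157 to 0.289 CPM in macrophages alone, a level that rests on 4 to 8 counts a library. Socs2, Smurf1 and Smurf2 were named after their values were seen. At 45 min Smad7 was at 0.41 (SE 0.11), a call lost after thinning or after correction for length and GC content. Cish, a target and inhibitor of STAT5 signalling, was at 32.6, 30.6, 38.1 and 29.4 CPM at 180 min, against 7.36, 9.36, 8.19 and 8.74 CPM in macrophages alone (1.96 (SE 0.10)). Socs1, which inhibits Janus kinases below the interferon gamma and interleukin 4 receptors, was highest at 90 min, with log2 changes of 0.87 (SE 0.095) at 90 min and 0.64 (SE 0.095) at 180 min. Usp18, which blocks signalling at Ifnar2, was higher at 45 min (0.15 (SE 0.041)) and lower at 90 min (-0.20 (SE 0.042)) and 180 min (-0.61 (SE 0.042)).

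**Figure D4:**
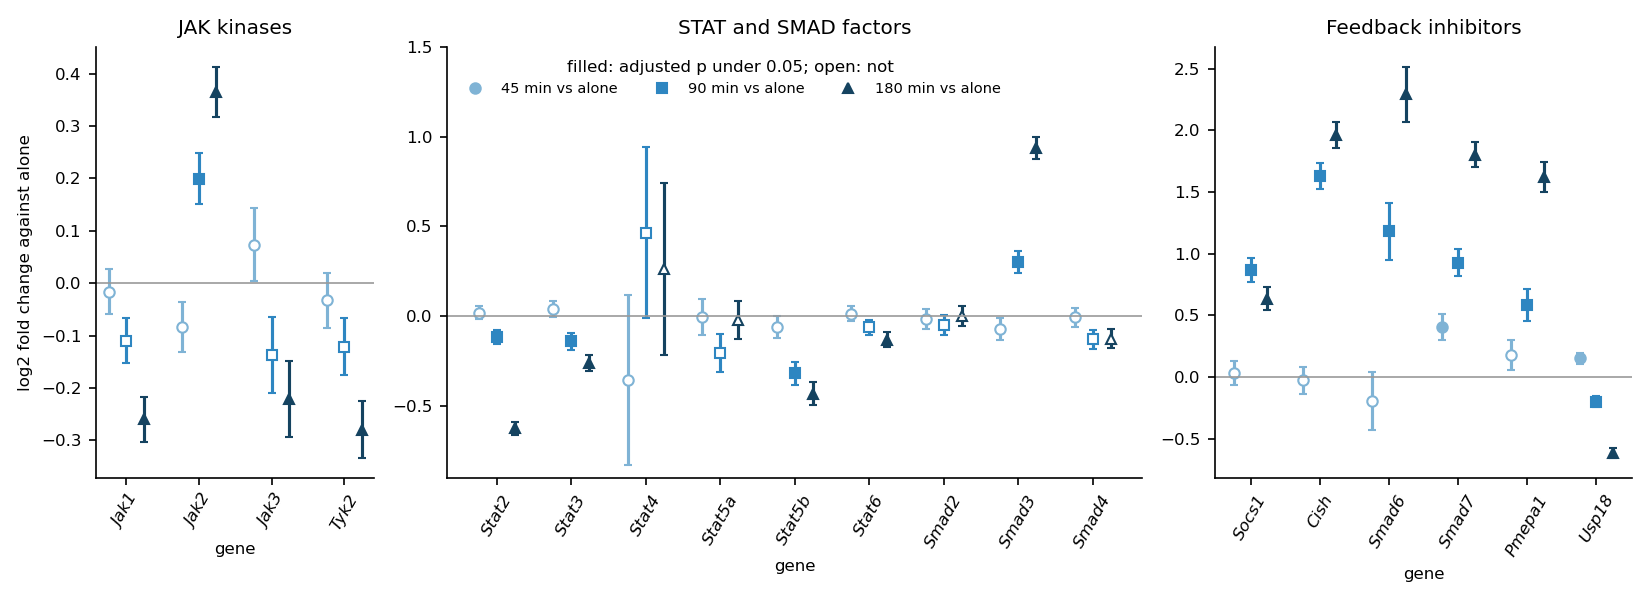
Log2 fold change against macrophages alone (vertical axes, scales differ between panels) of the Janus kinases, the STAT and SMAD factors and 6 feedback inhibitors at 45, 90 and 180 min. Bars are standard errors of edgeR's fit, and filled symbols have an adjusted p under 0.05. Smad3 at 0.94 and Smad6 at 2.29 are the highest values of their panels at 180 min, and Stat2 at -0.62 and Usp18 at -0.61 the lowest.

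Surface levels of Csf1r and Il6ra are also set by proteases that cut receptors off the cell, which RNA does not show. Adam17, the main such protease, was not called at any time (0.0070 (SE 0.048) at 180 min). Rhbdf2, which escorts it to the surface, rose by 0.47 (SE 0.051) at 180 min, and Frmd8, which stabilises that escort, fell by 0.50 (SE 0.060). Adam10, a related protease, was at -0.28 (SE 0.045).

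Of 10 transcription factors listed as regulators of Csf1r or of macrophage identity, 7 were higher and 1 lower at 180 min. The shares of all genes were 15.1% and 16%, and 59.5% of genes at the levels of the 10 receptor genes were called. Csf1r itself fell, and a link of these factors to that fall was not tested. Cebpa had 60.2 to 70.7 CPM at 180 min, against 30.9 to 34.4 CPM in macrophages alone (1.03 (SE 0.079)), and did not pass the test at 45 or 90 min. Cebpb rose at all 3 times, by 0.27, 0.67 and 0.96 at 45, 90 and 180 min, the 45 min value being 0.18 after correction for length and GC content. Spi1, which encodes PU.1, was higher at 45 min (0.17 (SE 0.045)), a call lost after that correction (0.071, adjusted p = 0.331), and was not called at 180 min. Maf fell by 0.48 (SE 0.043) at 180 min.

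For comparison, 43 further cytokine receptor genes were listed, of which 24 were tested. At 180 min 5 were higher and 6 lower, against 5 and 4 of the 10 receptor genes above. The share called was 31.1% of all genes and 59.5% of genes at the levels of the 10. Levels were not matched between the 24 and the 10, so these counts cannot be compared directly. The median size of change was 0.29 in the 24, 0.26 in the 10 and 0.21 over all genes, again without matching on level. Il17ra, the interleukin 17 receptor, rose nearly as much as Il4ra, with 111, 100.1, 111 and 105 CPM at 180 min, against 67.2, 62.0, 64.2 and 63.6 CPM in macrophages alone (0.73 (SE 0.058)). Of the tumour necrosis factor receptors, Tnfrsf1b was higher (0.22 (SE 0.039), and 0.13 after correction for length and GC content) and Tnfrsf1a lower (-0.51 (SE 0.050)). Of the receptors related to Tgfbr1, Acvr1b for activin fell (-0.60 (SE 0.067)), as did Bmpr2 for bone morphogenetic proteins (-0.44 (SE 0.055)), where Tgfbr1 rose. Of the others of this family, Bmpr1a was also lower (-0.20 (SE 0.063)), Acvr1 and Acvr2a were not called, and Acvr2b was higher (0.70 (SE 0.27, adjusted p = 0.0429)), at 2.59 to 4.13 CPM at 180 min, against 1.47 to 2.55 CPM in macrophages alone. The call of Acvr2b, named with Bmpr1a, Acvr1 and Acvr2a after their values were seen, was lost with no filter on low counts (adjusted p = 0.0961), after correction for length and GC content (adjusted p = 0.0742) or on leaving out library 1, 3 or 4 of macrophages alone or library 2, 3 or 4 of 180 min. Crlf2, the receptor for thymic stromal lymphopoietin, was higher at 45 min (0.36 (SE 0.060, adjusted p = 1.41e-05)) and not called at 90 or 180 min. At 45 min it had 84.0 to 92.4 CPM, against 64.9 to 72.9 CPM in macrophages alone.

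The genes most alike to each receptor gene in pattern were taken as those with the highest Pearson correlation of log2 CPM over the 16 libraries, among 8342 genes. This is a description over libraries that share groups. For Il4ra they were Fam20c (r = 0.98), Furin (0.98) and Il17ra (0.98), and for Csf1r Psap (0.99), Grn (0.98) and H2-K1 (0.98). For Ifngr1 they were Plekhb2 (0.97), Gtf2i (0.97) and P4ha1 (0.96), and for Il6ra Ehd4 (0.95), Mtmr3 (0.95) and Ankle2 (0.94). Tgfbr1 was most like Nufip2 (0.95), Csf2rb like Slc7a2 (0.94), Il10ra like Eif2b4 (0.94), Csf2ra like Slc27a1 (0.93), Ifnar1 like Cxcr4 (0.91) and Csf3r like Oas3 (0.88).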

How the data were processed

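Total RNA depleted of ribosomal RNA was made into libraries with a strand-marking kit, per the labels' protocols. The authors deposited raw counts per gene for 16 libraries. Per the submitters' processing notes, the build was mm39, and HTSeq, SAMtools and STAR 2.7.9a were used. For the strand setting of the counting and the handling of human reads, nothing is stated in the sources used here. The table's columns give groups but no replicate numbers, so libraries 1 to 4 of a group are names in file order. Replicates differed by more than sampling noise (chi-square per degree of freedom 3.98 to 10.3), and each counted as 1 sample.

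GENCODE M21, made for an earlier build, gave symbols, lengths and overlaps, so coordinates are given only for the RefSeq start regions. Of the gene IDs, 52083 had a symbol. Genes were kept by edgeR's filter (minimum count 10, minimum total 15), which left 14168. edgeR 4.0.16 (R 4.3.3) fitted all 16 libraries with group as the only term, TMM scaling and its quasi-likelihood F test, with Benjamini-Hochberg adjustment over all genes and calls at 0.05. Standard errors were taken as the absolute log2 fold change over the square root of F. The biological coefficient of variation was 7.81%. The fit and the exact test were tested on simulated data. Alternatives were DESeq2 1.42.0, RLE scaling, no filter, only the 2 groups compared, thinning to the smallest total, removal of a trend on length and GC content (known for 99.4% of genes tested) and leaving out each library. Thinning and leaving out libraries for the ratios were added after seeing the data.

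Named were all 10 receptor genes, any gene of lists of 15 or fewer, in longer lists up to 6 with the smallest p, and the genes most alike in pattern. The receptor genes and the lists were chosen with earlier results of these data known. Some genes are not reported here.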

Additional observations from a re-analysis of the deposited data

Results flagged for a closer look

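A library stood far from the other 3 of its group in 15 of 232 groups of 4 values looked at, where chance gives about 5%. In each, the gap to the nearest library exceeded Dixon's critical value for 4 samples. Among the receptor genes these were Il10ra in library 4 of 180 min (122 CPM, against 136 to 137 CPM in the other 3) and Il6ra in library 2 of 180 min (62.7 CPM, against 70.8 to 72.4 CPM). At 180 min the others were Il10 in library 2 (2.48 CPM), Stat5b in library 2 (45.5 CPM) and Irf8 in library 1 (173 CPM). At 90 min they were Cish in library 1 (29.6 CPM), Il17ra in library 4 (66.8 CPM) and the ratio of Il10ra to Il10rb in library 1 (0.948). In macrophages alone they were Acvr1b (69.5 CPM) and the ratio of Tgfbr1 to Tgfbr2 (1.12) in library 1, the ratio of Il4ra to Il2rg (2.61) in library 2, Smad6 (2.79 CPM) and Usp18 (731 CPM) in library 3, and Il10rb (148 CPM) and Stat5b (64.3 CPM) in library 4.

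The change against macrophages alone differed in some comparison of times for all 10 receptor genes, by edgeR's test of the difference itself. Since the controls are shared, this is the comparison of the times with each other. For each gene the comparison with the smallest p is given. The shares of all genes called were 28.1% for 90 min against 45 min, 11.4% for 180 min against 90 min and 36.4% for 180 min against 45 min. These are shares of single comparisons, and none is given for a call in any of them, so the count of 10 has no like share beside it. The test for a change at any time passed 44.6% of all genes and 77.9% of genes at similar levels. On the log2 scale, the change at 180 min minus that at 45 min was 0.66 for Il4ra, 0.42 for Tgfbr1, 0.32 for Csf2rb, 0.27 for Ifnar1, -0.19 for Csf1r, -0.26 for Csf3r, -0.30 for Il6ra and -0.46 for Ifngr1. The change at 90 min minus that at 45 min was 0.17 for Csf2ra and -0.23 for Il10ra. That of Csf2ra lost its call on leaving out library 1 or 2 of 90 min or library 3 or 4 of 45 min.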

How the results depend on the processing

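The number of the 10 receptor genes called at 180 min was 9 and over any time 10 under every alternative run. At 45 min it was 2, against 1 after thinning to equal totals and 3 with only the 2 groups compared in the fit, which added Tgfbr1 as lower. It was 2 after correction for length and GC content, but with Csf2rb (lower) in place of Il10ra. Leaving out each library gave 1 to 2 calls at 45 min, 4 to 5 at 90 min, 9 to 9 at 180 min, 5 to 8 for 90 min against 45 min, 4 to 5 for 180 min against 90 min and 9 to 10 for 180 min against 45 min. Changes that took the other sign had not been called. After correction for length and GC content these were, at 45 min, Csf1r (-0.032), Csf3r (-0.056), Ifngr1 (0.010) and Tgfbr1 (0.0057), and, at 90 min, Ifnar1 (-0.0072). After thinning it was Csf3r at 90 min (0.018). Leaving out each library gave log2 changes of -0.023 to 0.074 for Csf3r and -0.020 to 0.018 for Ifngr1 at 45 min, -0.049 to 0.032 for Csf3r at 90 min, -0.043 to 0.029 for Il10ra at 180 min, -0.088 to 0.018 for Csf3r at 90 min against 45 min and -0.086 to 0.023 for Csf2ra at 180 min against 90 min. The cause of these shifts was not tested. Calls over all genes stayed within 1.5 times of their number under all alternatives. With libraries thinned to equal totals, the calls of Il10ra at 45 min and Csf1r at 90 min were lost and that of Csf2ra at 180 min against 45 min was gained. No paired analysis was possible because the table's columns carry no replicate number.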
